A study of Homo sapiens with 6 samples.

Results

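The genes described here are those of mitochondrial complex I whose symbols begin with NDUF, compared between SW403 cells with normal IRS2 expression and SW403 cells with IRS2 knocked down. The rule took every row of the deposited count table whose symbol starts with NDUF, which gave 51 of 26490 rows. Of these, 39 are protein-coding subunit symbols (NDUFA, NDUFB, NDUFC, NDUFS and NDUFV), 8 are assembly factor symbols (NDUFAF), and 4 are antisense, divergent or readthrough symbols that were kept apart. SW403 is an established human colon adenocarcinoma line. Total RNA from 3 control libraries (labelled WT in the genotype field, NS in the descriptions) and 3 knockdown libraries (IRS2_knockdown, IRS2KO) was sequenced after 24 h in DMEM with 10% fetal bovine serum and no treatment. All cells came from this single line, and the means by which IRS2 was lowered is not given in the sources used here. Nothing in the labels says whether the knockdown cultures share 1 derived line, so p-values measure the spread between these cultures only.

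Complex I, NADH:ubiquinone oxidoreductase, is the entry point of electrons from NADH into the respiratory chain. Its matrix arm holds the N module, which oxidises NADH, and the Q module, which passes electrons to ubiquinone, and its membrane arm pumps protons. The central pump subunits are encoded by mitochondrial DNA, while the catalytic subunits of the matrix arm and all accessory subunits are encoded in the nucleus and imported. Assembly factors build the modules and are not part of the finished enzyme. NDUFA4 and NDUFA4L2 carry the NDUF name, but NDUFA4 is known as a subunit of cytochrome c oxidase, and RefSeq now calls these genes COXFA4 and COXFA4L2.

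Library totals ran from 11816973 to 12585013 counts in control and from 14329348 to 18114656 in knockdown, and the NDUF rows together held 35678 to 53744 counts of a library. IRS2, an adaptor of the insulin and IGF1 receptors, fell from 32.8 ± 1.55 to 12.5 ± 0.491 CPM (counts scaled to library size with edgeR's TMM factors; SD, n = 3 each), which is 2.62-fold (log2 fold change -1.39 ± 0.07 SE, edgeR adjusted p 3.12e-11). Of 10 colon epithelial markers, EPCAM, KRT8, KRT18, KRT19, VIL1 and CDX2 passed the expression filter, KRT20 and CDX1 had 0 counts, and CDH1 and CDH17 never exceeded 5 and 11 counts. EPCAM and KRT19 were lower in knockdown and CDX2 higher, and the summed level of the list was 2504 to 2609 CPM in control and 2383 to 2497 CPM in knockdown. Among 10 markers of other cell types, PECAM1 and ALB had 0 counts and PTPRC at most 1, while the collagen genes COL1A1 and COL3A1 were lower in knockdown (log2 fold changes -1.15 and -1.71, edgeR adjusted p 0.00290 and 0.0136). COL3A1 had only 34, 19 and 5 counts in control and 6, 3 and 14 in knockdown, so its groups overlapped. CD68, the only other of these markers past the expression filter, was not called (log2 fold change 0.12). COL1A2 had 86 counts in control replicate 1 and at most 11 in any other library. The summed level of these 10 markers was 9.19 to 26.7 CPM in control and 6.09 to 8.37 CPM in knockdown. The high value was that of control replicate 1, where COL1A1 stood at 15.2 CPM against 5.70 and 5.60 in the other control libraries. What part these markers have in the results below was not tested.

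Subunit transcripts were lower in knockdown or did not pass the test, and none was called higher except under the uncentred length and GC correction described next. Of the 38 subunits that passed the expression filter, 11 fell (28.9%), where 19.2% of all 13832 tested genes were called lower, and 0 rose, where 19.3% of all tested genes were called higher. These calls are edgeR quasi-likelihood tests at an adjusted p under 0.05. At an unadjusted p under 0.05 edgeR also put 0 higher, since the smallest p of a subunit above 0 was 0.104 (NDUFA4), and DESeq2's Wald test called 0 higher. By the fitted fold changes, the called subunits described below changed little, from -10.3% for NDUFAB1 to -21.0% for NDUFB3. Over the 38 subunits the median log2 fold change was -0.07, with 30 below 0, and over all tested genes it was -0.00. The 38 include NDUFA4. Without it, 11 of 37 subunits fell (29.7%), 0 rose, and the median was also -0.07. In 12 subunits every knockdown library lay below every control library and in 0 every one lay above, against 23.9% and 23.7% of all tested genes.

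The count moved with the processing. In the uncentred correction, each library's trend with transcript length and GC content was subtracted as it stood. It left 5 subunits lower and 5 higher (15.3% and 30.1% of all genes), with NDUFA4 among the higher ones. The median of the subunits was then 0.02, and that of all tested genes moved to 0.05. With the trend centred so that the scaling of the libraries stayed as it was, 11 subunits were lower, the same 11 as without a correction, and 0 were higher (21.1% and 22.2% of all genes). This centring was chosen after seeing the data. NDUFB3, NDUFB6, NDUFB8, NDUFB10 and NDUFC2 were lower in each of the 18 alternatives tried. DESeq2's Wald test called 7 subunits lower, all among the 11, where it called 10.8% of all genes lower. A fit that also held the replicate number as a block called 10 lower (17.4% of all genes).

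**Figure D1:**
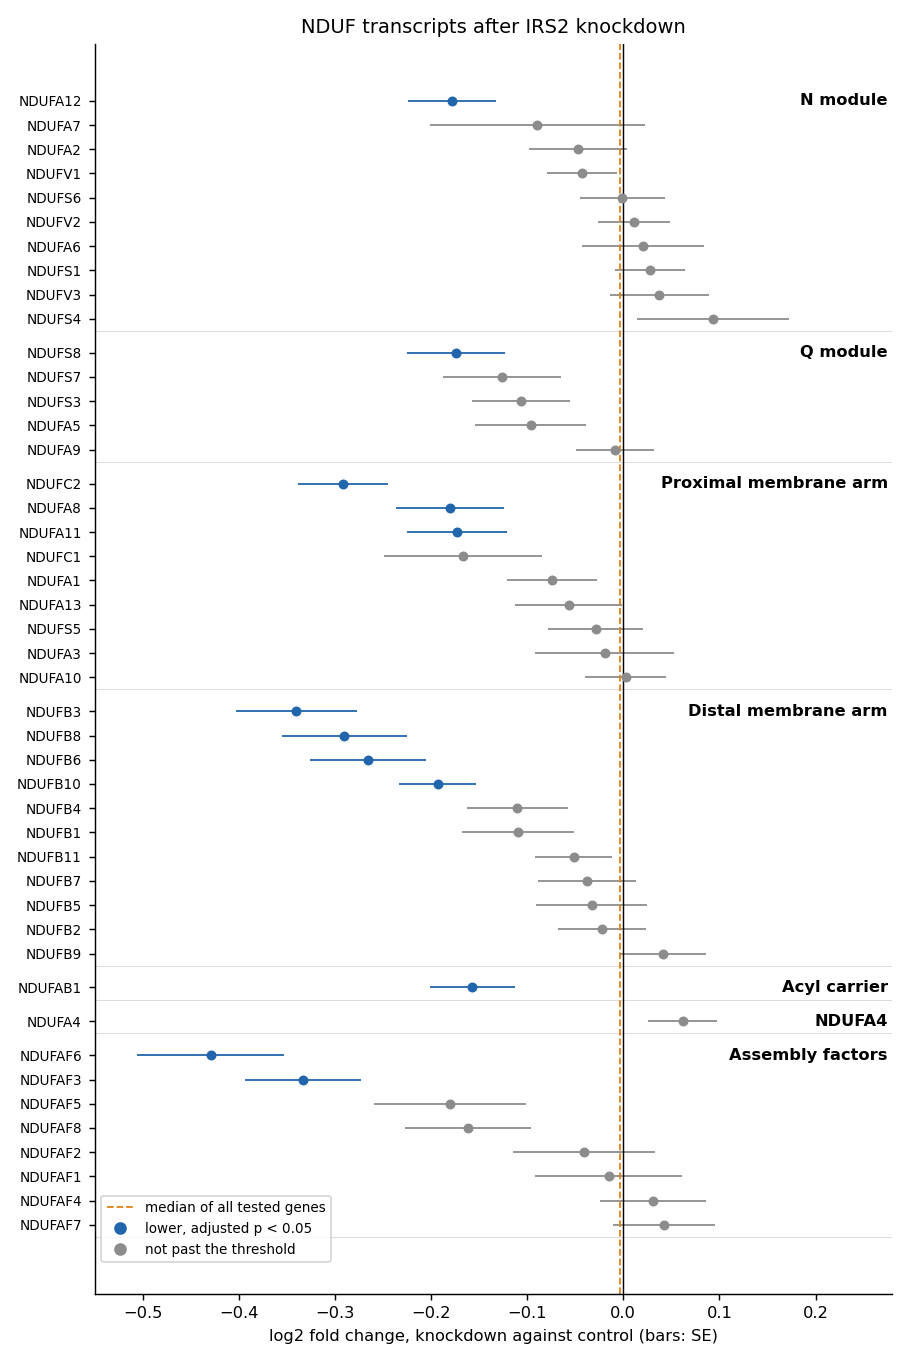
Log2 fold change of the tested NDUF subunits and assembly factors described here, knockdown against control (horizontal axis, bars are SE), grouped by module. Blue points passed an adjusted p under 0.05 and all lie below 0, between -0.43 for NDUFAF6 and -0.16 for NDUFAB1, and the dashed line is the median of all tested genes (-0.00).

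Promoter windows were searched for the letters of known regulators, as a description only. Whether called members and the others differ in these letters was not tested. RefSeq's table (GRCh38.p14, 250 bases before to 50 after each annotated start) held 41 of the 47 subunits and assembly factors. Each window was searched on both strands for an NRF1 palindrome (the capitals in the NDUFA8 and NDUFB4 windows), CCGGAAG (ETS factors such as GABPA) and AAGATGGC (YY1). No printed window holds more than 1 of these, so no matches overlap there. NRF1, GABPA and YY1 are transcription factors known to act at nuclear genes of the respiratory chain. The NRF1 letters were found in 3 of the 41 (7.32%) and in 1.52% of all 27305 genes in the table, the ETS letters in 7 (17.1%, against 12.2%), and the YY1 letters in 8 (19.5%, against 3.52%). Among the 10 called members with a window, 1 held the NRF1 letters, 0 the ETS letters and 1 the YY1 letters, and among the 31 others 2, 7 and 7 did. A match describes the letters only. The first 3 windows below belong to subunits that fell and the last to 1 that did not pass, with any matched letters in capitals.
NDUFB3 (chr2:201071751-201072050, plus strand, no match): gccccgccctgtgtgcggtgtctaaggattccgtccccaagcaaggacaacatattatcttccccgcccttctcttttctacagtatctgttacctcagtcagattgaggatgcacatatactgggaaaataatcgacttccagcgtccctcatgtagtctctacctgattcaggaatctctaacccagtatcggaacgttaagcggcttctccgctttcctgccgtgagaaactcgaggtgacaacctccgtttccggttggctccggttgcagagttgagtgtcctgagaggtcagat
NDUFB8 (chr10:100529822-100530121, minus strand, YY1 letters from base 268): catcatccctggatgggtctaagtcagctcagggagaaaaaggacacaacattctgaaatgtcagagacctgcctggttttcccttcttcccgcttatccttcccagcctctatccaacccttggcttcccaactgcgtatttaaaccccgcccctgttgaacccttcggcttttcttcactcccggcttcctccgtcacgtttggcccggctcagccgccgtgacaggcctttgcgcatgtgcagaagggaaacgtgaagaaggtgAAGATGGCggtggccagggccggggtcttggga
NDUFA8 (chr9:122159730-122160029, minus strand, NRF1 letters from base 247): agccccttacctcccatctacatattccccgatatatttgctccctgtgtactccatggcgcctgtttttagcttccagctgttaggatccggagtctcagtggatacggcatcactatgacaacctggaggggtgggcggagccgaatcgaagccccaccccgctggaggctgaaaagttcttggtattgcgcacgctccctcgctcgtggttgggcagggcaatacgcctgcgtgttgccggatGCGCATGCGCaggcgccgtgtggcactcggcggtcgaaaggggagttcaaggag
NDUFB4 (chr3:120596086-120596385, plus strand, NRF1 letters from base 92): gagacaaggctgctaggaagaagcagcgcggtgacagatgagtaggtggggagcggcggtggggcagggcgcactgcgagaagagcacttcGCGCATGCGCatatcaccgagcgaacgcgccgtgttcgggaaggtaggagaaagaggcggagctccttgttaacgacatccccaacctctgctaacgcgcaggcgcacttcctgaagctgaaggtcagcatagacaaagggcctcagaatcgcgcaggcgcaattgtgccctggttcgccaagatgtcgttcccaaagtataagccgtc

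In the distal membrane arm, 4 of 11 subunits fell (36.4%) and 0 rose, with a median log2 fold change of -0.11. That median was -0.03 with the centred and 0.02 with the uncentred length and GC correction. Of all tested genes 19.2% were lower and 19.3% higher. All 11 are NDUFB genes, accessory subunits packed around the outer proton pumps. NDUFB3 (chromosome 2, 201936156 to 201950473 in GRCh37, 3 exons in its canonical transcript) was at 40.6, 40.2 and 35.8 CPM in the control libraries and 30.6, 29.3 and 32.2 CPM in the knockdown libraries. The groups did not overlap, and the log2 fold change was -0.34 ± 0.06 (SE, edgeR adjusted p 0.000262), the largest fall of any subunit. NDUFB8 was at 54.2, 44.6 and 49.6 CPM in control and 39.2, 38.7 and 43.2 CPM in knockdown. The lowest control library lay close above the highest knockdown library, and the log2 fold change was -0.29 ± 0.07 (SE, edgeR adjusted p 0.00155). NDUFB6 had 41.3, 44.4 and 39.1 CPM in control and 32.8, 34.4 and 36.4 CPM in knockdown, apart in all libraries (log2 fold change -0.27 ± 0.06 SE, edgeR adjusted p 0.00169). NDUFB10 is the most abundant of these 4 and the tightest between libraries. It had 115, 116 and 119.5 CPM in control and 98.3, 102 and 105 CPM in knockdown (log2 fold change -0.19 ± 0.04 SE, edgeR adjusted p 0.00068).

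The other 7 distal subunits, NDUFB1, NDUFB2, NDUFB4, NDUFB5, NDUFB7, NDUFB9 and NDUFB11, did not pass. Their log2 fold changes ran from -0.11 for NDUFB4 to 0.04 for NDUFB9, and the groups were apart for NDUFB1 (33.9 ± 1.28 against 31.4 ± 0.902 CPM) and NDUFB11 (95.3 ± 2.50 against 91.9 ± 1.79 CPM; SD, n = 3 each). The 11 together came to 698 ± 16.8 CPM with normal IRS2 and to 647 ± 22.2 CPM after knockdown (SD, n = 3 each), a difference of -7.21%, and the ranges did not overlap.

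In the proximal membrane arm, 3 of 9 subunits fell (33.3%, against 19.2% of all tested genes) and 0 rose (against 19.3%), with a median of -0.07. NDUFC2, an accessory subunit beside the mitochondrially encoded ND2, had the smallest p of all NDUF rows. It was at 88.2, 88.9 and 83.0 CPM in control and 67.6, 69.9 and 74.7 CPM in knockdown, with no overlap (log2 fold change -0.29 ± 0.05 SE, edgeR adjusted p 6.37e-05). NDUFA8 faces the intermembrane space and is stabilised by disulfide bonds. Its values of 58.1, 52.4 and 55.9 CPM in control and 47.4, 46.7 and 52.5 CPM in knockdown overlapped slightly, since knockdown replicate 3 lay just above the lowest control library (log2 fold change -0.18 ± 0.06 SE, edgeR adjusted p 0.0150). NDUFA11, a membrane subunit between the proton pumps, was at 102, 94.0 and 89.3 CPM in control and 79.1, 84.3 and 89.3 CPM in knockdown (log2 fold change -0.17 ± 0.05 SE, edgeR adjusted p 0.0123). Its highest knockdown library and lowest control library also had nearly the same value. NDUFC1, the partner of NDUFC2 by name, was at 32.7 ± 4.12 and 29.0 ± 2.70 CPM (SD, n = 3 each) and did not pass. NDUFA1, NDUFA3, NDUFA10, NDUFA13 and NDUFS5 had log2 fold changes between -0.07 and 0.00 and did not pass.

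In the Q module, 2 of 6 subunits fell (33.3%, against 19.2% of all tested genes) and 0 rose (against 19.3%), with a median of -0.12. All 6 had a log2 fold change below 0, as did 7025 of the 13832 tested genes. This count moves with the processing, since NDUFA9 was at 0.0026 without a filter and 0.0183 with the centred correction. Under the uncentred correction NDUFA9 (0.0710) and NDUFA5 (0.0023) both lay above 0. NDUFS8, an iron-sulfur core subunit, had 65.6, 61.0 and 67.1 CPM in control and 55.1, 56.0 and 60.1 CPM in knockdown, with no overlap (log2 fold change -0.17 ± 0.05 SE, edgeR adjusted p 0.0102). NDUFS7, the core subunit that hands electrons to ubiquinone, was at 51.9 ± 4.58 and 47.5 ± 2.73 CPM, and NDUFS3, another core subunit, at 73.4 ± 3.52 and 68.0 ± 4.11 CPM (SD, n = 3 each). The groups overlapped for both genes and neither passed. The accessory subunits NDUFA5 and NDUFA9 had log2 fold changes of -0.10 and -0.01.

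In the N module, 1 of 10 subunits fell (against 19.2% of all tested genes) and 0 rose (against 19.3%), with a median of 0.01, and 5 values lay on either side of 0. The count below 0 moves with scaling, since NDUFA6, NDUFS1 and NDUFV2 fall below 0 when library size alone is used. NDUFV1, which binds NADH and flavin, was at 153, 144 and 145 CPM in control and 143, 140.3 and 145 CPM in knockdown (edgeR adjusted p 0.386). NDUFV2, an iron-sulfur core subunit, was at 150.2, 148 and 145 CPM in control and 145, 147 and 155 CPM in knockdown. NDUFS1, the largest iron-sulfur core subunit, was at 126, 131 and 131 CPM in control and 134, 129 and 133 CPM in knockdown. The ranges of these 3 core genes overlapped between groups, and their standard errors were 0.04 on the log2 scale. NDUFA12 was the member that fell. It sits where the N and Q modules meet, and had 106, 106 and 99.6 CPM in control and 89.96, 87.6 and 97.5 CPM in knockdown (log2 fold change -0.18 ± 0.05 SE, edgeR adjusted p 0.00429). NDUFS4, NDUFV3, NDUFA6, NDUFS6, NDUFA2 and NDUFA7 had log2 fold changes from -0.09 to 0.09 and did not pass. With the centred correction the median was 0.03 in the N module and -0.10 in the Q module. It was -0.02 in the proximal arm and -0.03 in the distal arm. Without centring, these medians were 0.09, -0.05, 0.03 and 0.02. Whether the modules differ from each other was not tested.

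By role, 2 of the 7 nuclear core subunits fell and 9 of the 30 accessory ones, which is 28.6% and 30.0%, against 19.2% of all tested genes. NDUFA4 and NDUFA4L2 are in neither of these lists. NDUFAB1, the mitochondrial acyl carrier protein, serves fatty acid synthesis as well as complex I. It was listed apart from the modules but is among the 9 of 30 accessory subunits that fell. It had 69.0, 67.1 and 65.8 CPM in control and 59.2, 60.4 and 61.4 CPM in knockdown, with no overlap (log2 fold change -0.16 ± 0.04 SE, edgeR adjusted p 0.00844). NDUFA4 was at 148, 154 and 147 CPM in control and 157, 151 and 159.9 CPM in knockdown (log2 fold change 0.06 ± 0.04 SE, edgeR adjusted p 0.193). Its mean CPM in control lay within 1 SD of that of NDUFV2 and NDUFV1. Its paralogue NDUFA4L2, known as a hypoxia-induced gene, did not pass the filter, with 2, 4 and 4 counts in control and 5, 5 and 10 in the deeper knockdown libraries.

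**Figure D2:**
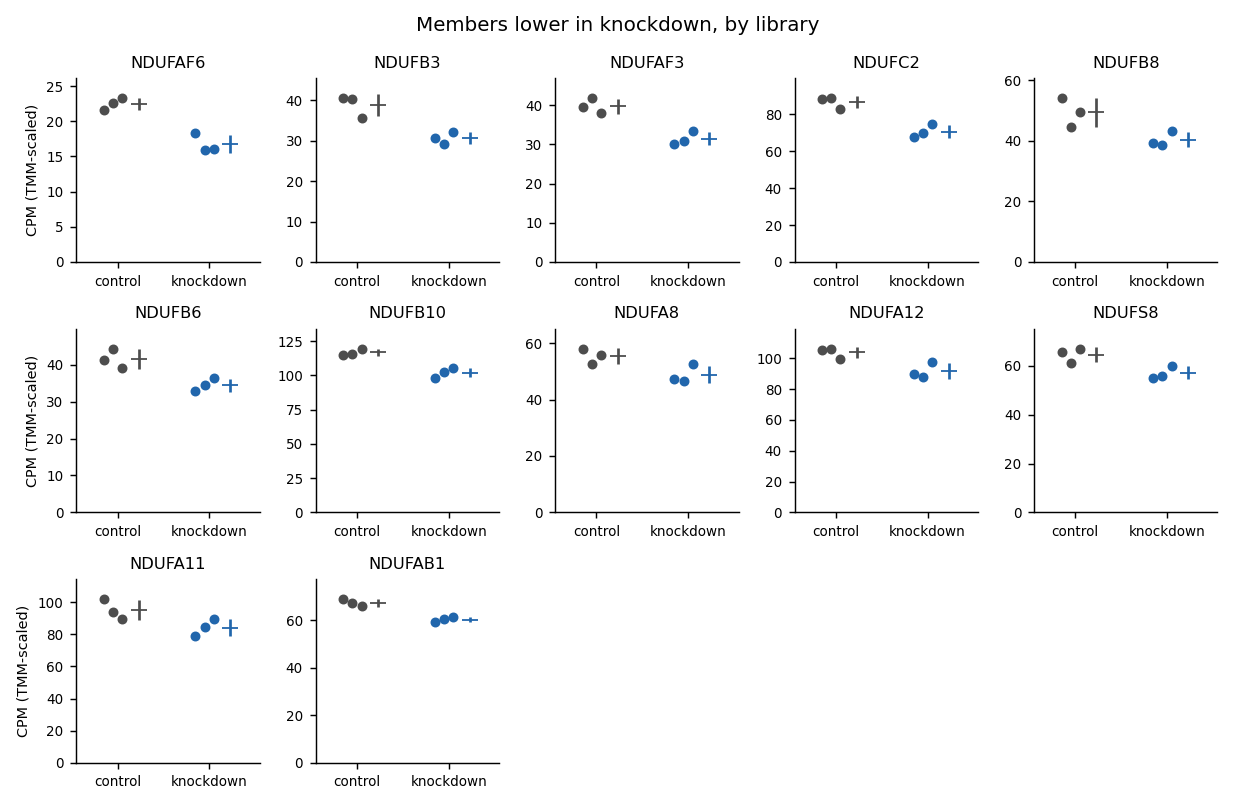
TMM-scaled CPM (vertical axis, from 0) of 12 NDUF subunits and assembly factors that fell, with a point per library and the mean and SD (n = 3) beside them. All panels show lower means in knockdown, and in NDUFA8 and NDUFA11 the highest knockdown library lies level with the lowest control library.

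The largest fall among the NDUF rows was that of an assembly factor, NDUFAF6. Of the 8 NDUFAF genes, 2 fell (against 19.2% of all tested genes) and 0 rose (against 19.3%), with a median of -0.10 and 6 values below 0. NDUFAF6, needed for the biogenesis of the ND1 subunit, was at 21.6, 22.6 and 23.3 CPM in control and 18.3, 15.9 and 16.1 CPM in knockdown. The groups were well apart, and the log2 fold change was -0.43 ± 0.08 (SE, edgeR adjusted p 0.000189), a change of -25.7% by the fitted fold. NDUFAF3, which works with NDUFAF4 early in the building of the Q module, had 39.5, 41.8 and 37.9 CPM in control and 30.1, 30.9 and 33.4 CPM in knockdown (log2 fold change -0.33 ± 0.06 SE, edgeR adjusted p 0.000209). Both genes stayed lower past the threshold in each of the 18 alternatives, NDUFAF6 between -0.49 and -0.36 and NDUFAF3 between -0.38 and -0.28. NDUFAF4, the partner of NDUFAF3, was at 38.7, 38.1 and 37.8 CPM in control and 39.4, 36.9 and 40.8 CPM in knockdown, so the groups overlapped (log2 fold change 0.03 ± 0.06 SE).

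Of the remaining factors, NDUFAF5 modifies NDUFS7 and NDUFAF8 stabilises NDUFAF5. NDUFAF5 was at 21.4 ± 0.941 and 18.9 ± 1.72 CPM and NDUFAF8 at 35.9 ± 0.612 and 32.1 ± 2.83 CPM (SD, n = 3 each). The groups were apart for both, yet neither passed in edgeR (adjusted p 0.0806 and 0.0572). With library size alone in place of TMM factors both passed, which made 4 lower factors (23.1% of all genes were then lower). NDUFAF8 also passed with the filter at a mean of at least 50 counts (edgeR adjusted p 0.0388). NDUFAF1, part of the intermediate assembly complex for the membrane arm, NDUFAF2, the factor that holds the place of NDUFA12, and NDUFAF7, a mitochondrial methyltransferase, overlapped between groups, with log2 fold changes of -0.02, -0.04 and 0.04. The sign of NDUFAF1 and NDUFAF2 turned under some alternatives, given with the processing.

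Assembly factors that do not carry the NDUF name were taken from a list of 13 genes. Of these, 5 fell (38.5%, against 19.2% of all tested genes), 0 rose (against 19.3%) and 8 did not pass, with a median of -0.14. TIMMDC1, a membrane arm factor, went from 43.6 ± 2.59 to 35.4 ± 1.43 CPM and ECSIT, a partner of NDUFAF1, from 32.2 ± 0.555 to 26.5 ± 0.682 CPM (SD, n = 3 each). Their log2 fold changes were -0.30 ± 0.06 and -0.28 ± 0.06 (SE), with edgeR adjusted p-values of 0.000389 and 0.000838. COA1 (-0.15), DMAC1 (-0.18) and FOXRED1 (-0.16) also fell, with edgeR adjusted p-values of 0.00509, 0.0234 and 0.0364. The calls of COA1, DMAC1 and FOXRED1 were lost in DESeq2's Wald test and under the uncentred correction, while TIMMDC1 and ECSIT passed in each alternative fit. DMAC1 and FOXRED1 also failed a threshold of 0.01. FOXRED1 was further lost without a filter, with the replicate block, and when control replicate 1 or 3 or knockdown replicate 1 or 2 was left out. DMAC1 was further lost when control replicate 2 or knockdown replicate 1 or 2 was left out. ACAD9, TMEM126A, TMEM126B, TMEM186, NUBPL, TMEM70, AIFM1 and DMAC2 had log2 fold changes from -0.16 to 0.09. Among these 8, TMEM70 was called higher under the uncentred correction (edgeR adjusted p 0.0227), also with the replicate block added. AIFM1 was called lower with library size alone (edgeR adjusted p 0.0250).

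Of the 7 complex I subunits encoded by mitochondrial DNA, 4 rose. These were ND1, ND2, ND4 and ND4L, which rose by log2 fold changes of 0.16, 0.17, 0.17 and 0.22, with edgeR adjusted p-values of at most 0.000158 (19.3% of all tested genes were higher), while 0 fell and ND3, ND5 and ND6 did not pass. The log2 fold changes of these 3 were -0.10, 0.01 and -0.04, and ND3 was called lower in 5 alternative fits, among them library size alone (edgeR adjusted p 0.0165, in a range from 0.00226 to 0.750 over its alternatives). ND5 and ND6 were called higher under the uncentred length and GC correction (edgeR adjusted p 0.00455 and 0.0110), also with the replicate block added. Without control replicate 3, ND6 was called lower (edgeR adjusted p 0.0440). Whether the mitochondrially and nuclear encoded lists differ was not tested. ND4L, for example, was at 914, 951 and 932 CPM in control and 1136, 1096 and 1036 CPM in knockdown. These 4 genes passed in each of the 18 alternatives. ND4 and ND4L lie on the same transcript and overlap, and ND6 lies opposite other mitochondrial transcripts. The strand setting of the counting is not given in the sources used here, so the values of such neighbours are uncertain.

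Of 11 regulators of respiratory genes, 10 were tested, of which 3 were higher and 1 lower, where 19.3% and 19.2% of all tested genes were. PPRC1, a coactivator, POLRMT, the mitochondrial RNA polymerase, and ESRRA, a nuclear receptor, rose, by 0.14, 0.15 and 0.13 on the log2 scale (edgeR adjusted p 0.00429, 0.00523 and 0.0455). TFB2M, a mitochondrial transcription factor, fell, by 0.20 on the log2 scale (edgeR adjusted p 0.0257). The calls of ESRRA and TFB2M were lost in several alternatives. With the centred correction 4 regulators were higher and 1 lower (22.2% and 21.1% of all genes). NRF1, GABPA, GABPB1 and YY1, whose letters were searched for above, had log2 fold changes between -0.04 and 0.02 and did not pass. TFAM and PPARGC1B did not pass either. PPARGC1A did not pass the expression filter, with 7, 6 and 9 counts in control and 2, 1 and 4 in the deeper knockdown libraries.

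**Figure D3:**
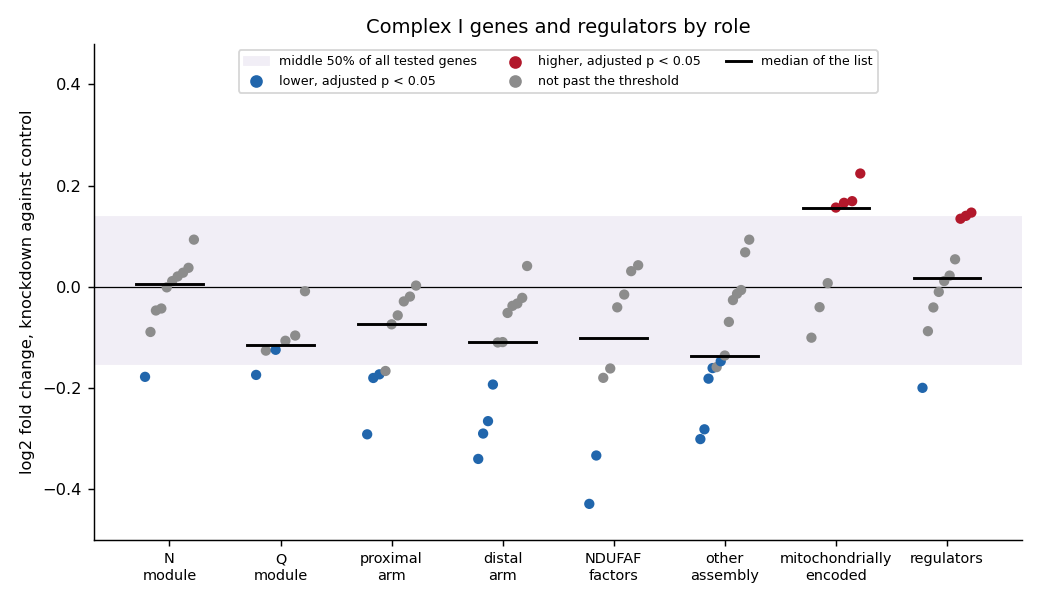
Log2 fold change (vertical axis) of complex I genes and regulators by role, each point a gene, with black bars at the list medians and the shaded band covering the interquartile range of all tested genes. The medians lie at 0.01 in the N module, -0.12 in the Q module, -0.07 and -0.11 in the proximal and distal arms, and 0.16 in the mitochondrially encoded list. All values are drawn without the length and GC correction.

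Levels per transcript length differed widely among subunits of a complex that holds most of them in equal number. They were compared for the 28 subunits whose canonical transcript and whose median protein-coding transcript in GENCODE differ by at most 1.5 times, since the deposited table does not say which isoforms were counted. In control, NDUFS6 was highest at 216 ± 8.93 CPM per kb and NDUFV3 lowest at 9.33 ± 0.450 CPM per kb (SD, n = 3), a ratio of 23.1. That ratio rests on the 5725 nt transcript of NDUFV3, and the lowest after it was NDUFS4 at 26.7 ± 2.12 CPM per kb. After NDUFS6 came NDUFA12 at 185 ± 6.51, NDUFB10 at 173 ± 3.65 and NDUFV2 at 173 ± 2.95 CPM per kb, of which the last pair did not differ beyond their SD. In 12 of the 27 neighbouring pairs the difference was within the larger SD. Across the 38 tested subunits, which share the same libraries, Spearman's rho of the log2 fold change with the control CPM per kb was -0.16, and with the control CPM 0.22. Assembly factor transcripts were scarcer than subunit transcripts in CPM, which does not account for length, with medians of 30.2 and 65.9 CPM in control.

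**Figure D4:**
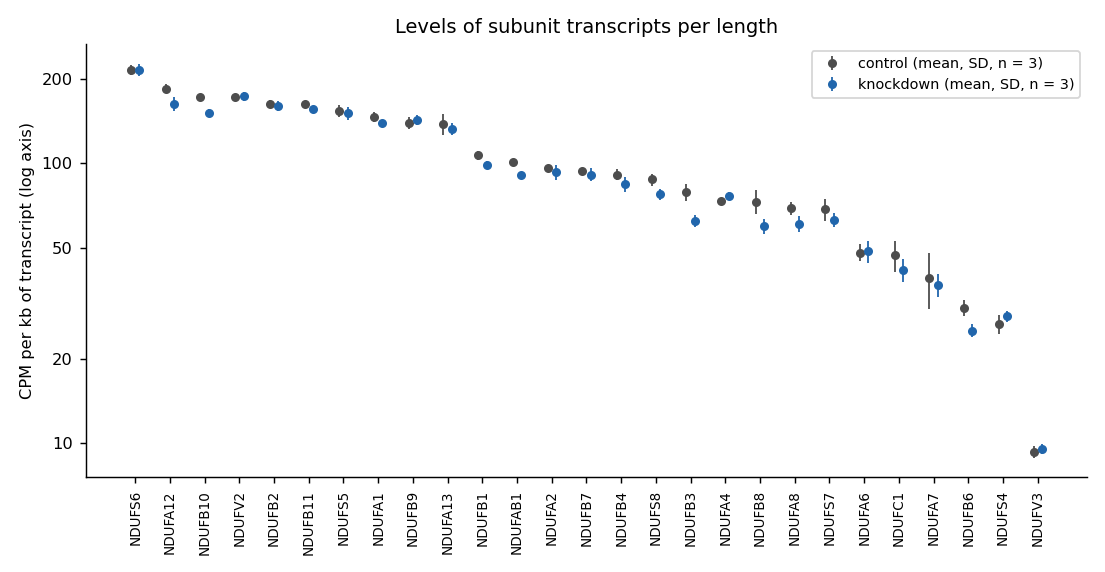
CPM per kb of transcript (vertical log axis) for 27 of the subunits in order of the control level, with mean and SD of 3 control and 3 knockdown libraries. The order runs from NDUFS6 at 216 to NDUFV3 at 9.33 CPM per kb in control.

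Subunit transcripts are short, and short transcripts as a whole were slightly lower in knockdown. The median subunit transcript is 694 nt long, against 3277 nt for all tested genes. Tested genes with an annotated length were split into 5 bins of about equal size. The shortest bin, 110 to 1755 nt, had a median log2 fold change of -0.05 with 21.7% of its genes called lower, and it holds 30 of the 38 subunits and 10 of the 11 that fell. The longest bin had a median of 0.04 with 18.8% called lower. Within the 38 subunits, Spearman's rho of log2 fold change with length was 0.23. The median of the subunits was -0.03 after the centred correction, while the shortest bin was at -0.03 too. How far length accounts for the subunit median was not tested beyond these corrections.

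**Figure D5:**
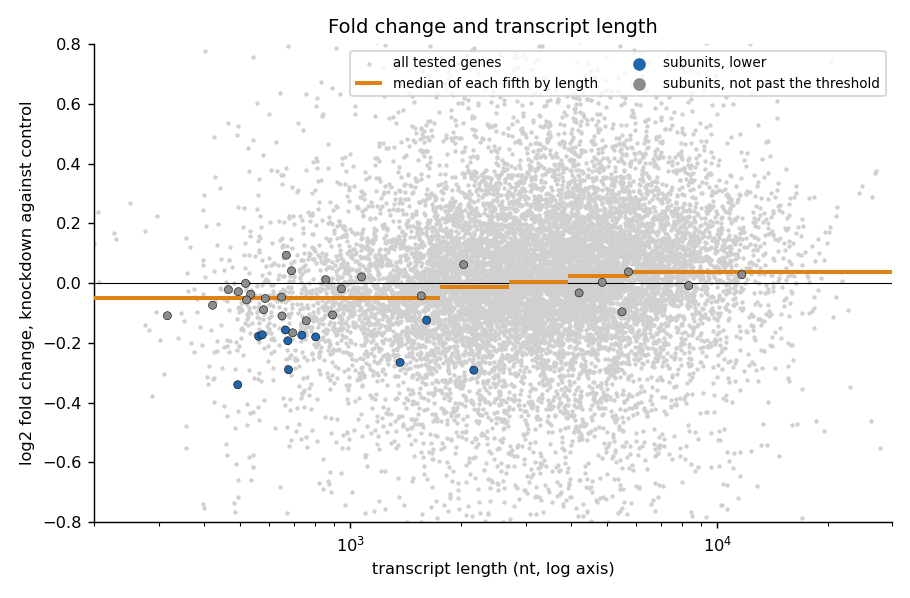
Log2 fold change (vertical axis) against transcript length (log axis) for all tested genes in grey and the 38 subunits as outlined points, with orange bars at the median of each length bin. The bars climb from -0.05 to 0.04, and 10 of the 11 blue points fall in the first bin, while genes beyond the limits of either axis are not drawn.

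Libraries of a group were not level for these genes. Knockdown replicate 3 had the highest value among the knockdown libraries in 32 of the 38 subunits, and control replicate 1 the highest among the control libraries in 23. The summed subunit level was 2885, 2824 and 2738 CPM in control and 2607, 2643 and 2782 CPM in knockdown, so the sums overlapped between groups. Without knockdown replicate 3, 15 subunits were lower, the 11 and also NDUFA5, NDUFB4, NDUFC1 and NDUFS3, and 0 were higher, where 18.6% of all genes were lower and 19% higher. Without control replicate 1, which also carried the high collagen value, 8 were lower and 0 higher (16.3% and 16.4% of all genes), and the calls of NDUFA8 and NDUFA11 were among those lost. Without knockdown replicate 1, 8 were lower and 0 higher too (16.3% and 17.2% of all genes), and these calls were again lost.

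The readthrough symbol NDUFC2-KCTD14 was the only NDUF row called higher. It had 22, 3 and 23 counts in control and 68, 33 and 67 in knockdown (log2 fold change 1.42 ± 0.39 SE, edgeR adjusted p 0.00727), and the call was lost in DESeq2's Wald test (adjusted p 0.209, the largest over its alternatives). Its exons are shared with NDUFC2, which was lower, and KCTD14, which was higher (log2 fold change 0.49), so its reads cannot be told apart from theirs. NDUFA6-DT, NDUFB2-AS1 and NDUFV2-AS1 had at most 43 counts in a library and did not pass. Among the called members, exons of NDUFAF3 lie opposite exons of DALRD3, whose log2 fold change was -0.01, and exons of NDUFB8 lie opposite HIF1AN, whose log2 fold change was 0.22. Exons of NDUFB6 lie opposite SMIM27, and those of NDUFC2 opposite THRSP, which had at most 1 count in a library. NDUFA11 and NDUFB8 each also overlap exons of a gene without a symbol on their own strand. GENCODE names at least 1 pseudogene for 19 of the 39 subunits, and reads shared with such pseudogenes make their values less certain.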

How the data were processed

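The authors deposited whole-number counts per gene symbol for 3 control and 3 knockdown libraries, with library totals from 11816973 to 18114656. A second table deposited by the authors holds a normalized signal, the counts divided by 1 constant per library (0.847 to 1.25). The submitters' processing notes name STAR 2.6.1a, Salmon, DESeq2 and hg19 without roles, and strand and annotation are not given in the sources used here. Of the columns with values per sample, 0 were left unused. With edgeR 4.0.16 (R 4.3.3), counts were filtered by filterByExpr, scaled by TMM and fitted with 1 coefficient for knockdown (quasi-likelihood test). Benjamini-Hochberg adjustment ran over 13832 genes, with a threshold of 0.05, and SE is the absolute log2 fold change over the square root of F. An exact test of 3 against 3 cannot give a two-sided p below 0.1. Only the reported edgeR fit and its version with the centred correction were tried on simulated counts. Those counts carried no length or GC trend, so they could not test the removal of such a trend.

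Transcript lengths and GC content came from GENCODE version 44 lifted to GRCh37, for 96.1% of tested genes. Alternatives were DESeq2 1.42.0 (size factors, Wald test), library size alone, no filter, a mean of 50 counts, limma 3.58.1 on log2 deposited values plus 1 (mean of at least 10), a threshold of 0.01, length and GC splines with 5 degrees of freedom, the replicate number as a block, and leaving out each library. The centred splines were chosen after seeing the data. Members, modules and gene lists were chosen with earlier results of these data known. Borders between modules differ among sources. Named were IRS2, called NDUF rows, core subunits, NDUFAF genes, the NDUFA4 pair, extremes of level and called genes of the other lists, with further members by their values; 1 item is not reported here. The replicate numbers come from the titles; same-numbered libraries had deviations correlated by 0.04, -0.01 and -0.10, which does not pair them.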

Additional observations from a re-analysis of the deposited data

How the results depend on the processing

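The count of 11 lower subunits became 7 with DESeq2's Wald test and 7 at a threshold of 0.01 (12.9% of all genes lower). It was 14 with library size alone (adding NDUFB4, NDUFS3 and NDUFS7, with 23.1% of all genes lower), and it ranged from 8 to 15 when each library was left out. The uncentred length and GC correction gave 5 lower and 5 higher subunits (NDUFA4, NDUFB9, NDUFS1, NDUFS4 and NDUFV2), a subunit median of 0.0240 and an assembly factor median of -0.0096. Over all genes 66.3% of its calls were higher, against 50.2% without it and 40.8% with library size alone. With the replicate block added to that correction the values were 5, 5, 0.0230 and -0.0090, and with the block alone 10 subunits were lower. Libraries of the same number share only that number, and the block alone ended the call of none of the subunits described by name. Library size alone gave 4 lower assembly factors, and leaving out each library gave 2 to 3. At a mean of at least 50 counts NDUFAF8 was called lower as well (edgeR adjusted p 0.0388). The subunit median ranged from -0.0926 to -0.0528 and the assembly factor median from -0.126 to -0.0597 when each library was left out.

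Of 755 values for 42 named genes, 644 kept direction and call, 70 lost the call, 13 gained it and 28 turned sign, 0 of them in a called gene. NDUFS6 (log2 fold change -0.00) turned to 0.0008 with DESeq2 size factors, 0.0103 without a filter, 0.0065 in the Wald test and 0.0051 in limma. With the length and GC correction it was 0.0821 (0.0295 centred, and 0.0794 and 0.0266 with the block). NDUFAF1 was 0.0591 with the correction (0.0066 centred, 0.0643 and 0.0117 with the block), and NDUFAF2 was 0.0692 (0.0166 centred, 0.0711 and 0.0183 with the block). With library size alone NDUFV2 was -0.0194 and NDUFS1 -0.0026, and at a mean of 50 counts NDUFV2 was -0.0018. When each library was left out, NDUFS6 ranged from -0.0434 to 0.0320, NDUFAF1 from -0.0587 to 0.0360, NDUFAF2 from -0.0904 to 0.0527, NDUFV2 from -0.0201 to 0.0311 and NDUFAF4 from -0.0045 to 0.0706. Where no value above shows a cause, the cause was not tested. A tested subunit had 199 to 2849 counts per library, which limits how small a change can be seen.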
